A study of Homo sapiens with 12 samples.

Results

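The response of HUDEP-2 cells carrying the sgEGR1 guide to stem cell factor (SCF) was examined by RNA-seq in 6 of the 12 libraries of the series, 3 treated with SCF and 3 with PBS. The libraries were chosen by their labels alone, and every expressed gene entered the comparison. HUDEP-2 cells are immortalised human erythroid precursors whose survival and growth need Kit signalling. All 12 cultures expressed dCas9-KRAB, a Cas9 without nuclease activity fused to a repressor domain, from a lentivirus, and cells were sorted for the GFP that marks the guide construct. The populations were not described as single clones. They were deprived of growth factors for 5 h and then received 50 ng/mL of SCF, or PBS alone, for 1 h. The other 6 libraries carried a scrambled guide (sgControl) with the same treatments and are used here only for reference.

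SCF is the ligand of Kit, a receptor tyrosine kinase. Kit drives the RAS and ERK kinase cascade, PI3 kinase and AKT, and STAT5. ERK acts within minutes on serum response factor (SRF) and its ETS-family partners, which switch on immediate early genes such as the EGR and AP-1 families, while AKT keeps FOXO transcription factors out of the nucleus. EGR1 is a zinc finger transcription factor of this early wave, and NAB1 and NAB2 are its corepressors.

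A sequence that the study lists for sgEGR1 is shown because it gives a site to which the repressor would be sent. Whether it is the guide of these libraries could not be checked, and the paper gives a greater distance upstream of EGR1 for its targeted element. It had 1 exact match with an NGG motif in GRCh38, at chr5:138464830-138464849 on the plus strand, which lies 630 bases upstream of the EGR1 start and in no annotated gene. The capitals mark the genomic bases next to the match that form the PAM.
sgEGR1: ggatgacagcgatagaacccCGG

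The 6 libraries held 23.5 to 32.04 megacounts, and 15492 of the 54628 listed genes were abundant enough to test. Levels are given as CPM, counts per megacount of the library total after TMM scaling, and they are not corrected for gene length. Of the 8 defining erythroid markers, among them HBB, GATA1, KLF1, KIT and the transferrin receptor TFRC, every member was expressed in all 6 libraries, with a summed level of 21000 to 22200 CPM after PBS and 20300 to 21700 CPM after SCF. Myeloid and lymphoid markers were too low to test, with CD14 and CD79A below 0.3 CPM in every library and the other 9 at 0. The mast cell tryptases TPSAB1 and TPSB2, whose sequences are similar enough that reads could be split between them, stood at 209, 113 and 114 CPM and at 149, 79.8 and 80.4 CPM after PBS, and were highest in replicate 1 after SCF as well. The summed level of the 5 mast cell markers was 193 to 359 CPM after PBS and 195 to 357 CPM after SCF, so these ranges overlapped almost fully. Of the 6 megakaryocyte markers GP9, PF4 and PPBP were at 0, and the sum was 13.5 to 23.9 CPM after PBS and 13.0 to 36.1 CPM after SCF, of which ITGA2B in the library labelled sgEGR1 SCF replicate 3 made up 35.2 CPM. What part the replicate differences in these markers had in the results was not tested. In bulk RNA, fewer cells of a type and less RNA per cell cannot be told apart.

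Replicate 1 stood apart from the other replicates in both treatments. Among 8698 genes with a mean of at least 10 CPM, 84 lay at least 1.5-fold above and 59 at least 1.5-fold below both other libraries in PBS replicate 1, and 54 and 49 did so in SCF replicate 1, against 4 to 10 genes per direction for any other library. The labels name no batch. Of the 101 genes named under a fixed rule, 53 overlap exons of another annotated gene on either strand, so their counts are uncertain, and EGR1, FOSB, FOSL1, PDK4, FOS, DUSP2, CHAC1, SKIL, SRF, PNRC1, OTUD1, CCNG2 and CDKN1B are among those that do not. Because SCF and PBS each hold 1 library of every replicate number, results are also given with a term for replicate 1 in the model.

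EGR1 was induced by SCF in all 3 sgEGR1 libraries, but to unequal levels. The gene (chr5:138465479-138469303 on the plus strand of GRCh38, the build of all positions here) stood at 2.04, 1.12 and 0.977 CPM after PBS and at 40.4, 57.4 and 204 CPM after SCF in replicates 1, 2 and 3. The treatments did not overlap. The SCF libraries of replicates 1 and 2 lay below the lowest sgControl SCF library at 171 CPM, whereas the library labelled sgEGR1 SCF replicate 3 lay inside the sgControl SCF range of 171 to 239 CPM and so goes against its label. The log2 fold change was 6.22 (SE 0.689, edgeR adjusted p 0.000522), and it was 5.18 without that library and 6.18 with a term for replicate 1, with EGR1 called in all 14 alternative fits, a number that leaves out 2 pairings of replicates added after seeing the data. An exact two-sided permutation test on log2 CPM gave p 0.1, the smallest that 3 against 3 libraries allow.

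Few other genes set the library labelled sgEGR1 SCF replicate 3 apart by 2-fold or more. Among the 8698 genes it held 11 at least 2-fold away from both other SCF libraries. Apart from EGR1, these were 5 ribosomal RNA copies, the read-through genes FMC1-LUC7L2, SLMO2-ATP5E and CHKB-CPT1B, and OPN3 and CHML, all features that share sequence or exons with others and whose counts are therefore uncertain. They were picked after their values were seen. Smaller departures escape this screen. The fetal globin gene HBG1 had 94.4, 146 and 64.6 CPM after SCF, and HBG2 had 52.0, 82.2 and 38.8 CPM. For both, the library labelled replicate 3 was the lowest of the 6 sgEGR1 libraries. In sgControl SCF, HBG1 had 35.7, 52.3 and 61.4 CPM and HBG2 29.6, 29.6 and 45.6 CPM. Neither was called for SCF against PBS, both were named after their values were seen, and the cause was not tested. NAB2, the EGR1 corepressor, had 16.6, 16.3 and 17.0 CPM after PBS and 19.7, 17.4 and 35.3 CPM after SCF. Only the library with the sgControl level of EGR1 reached the sgControl SCF range of NAB2, 29.7 to 53.6 CPM. NAB2 was not called (log2 fold change 0.54, SE 0.256, edgeR adjusted p 0.352, range over 14 alternatives 0.158 to 0.843), and its 3′ end overlaps STAT6 on the opposite strand.

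**Figure D1:**
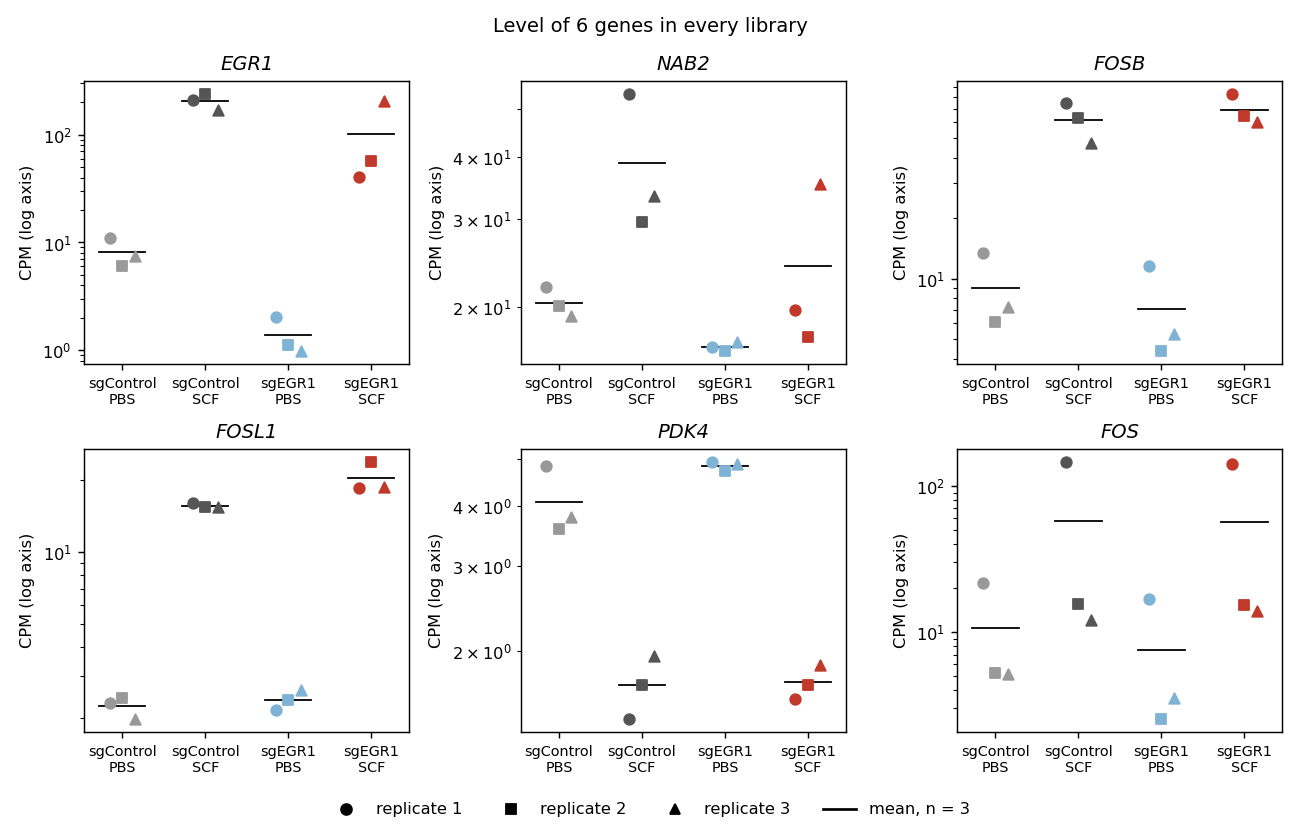
CPM of 6 genes in each of the 12 libraries on log axes, grouped by guide and treatment, with a bar at the mean of 3 libraries. In sgEGR1 SCF, EGR1 and NAB2 of replicate 3 (204 and 35.3 CPM) sit within the sgControl SCF range, FOSB, FOSL1 and PDK4 change in all 3 libraries, and FOS is far higher in replicate 1 than in the others in every group.

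In all, 402 of 15492 genes passed the test of SCF against PBS in sgEGR1 cells at an edgeR adjusted p under 0.05 (2.59%), of which 280 were higher (1.81%) and 122 lower (0.788%). The responses were mostly small. The median log2 fold change was 0.42 among the genes that rose, or 1.34-fold, and -0.35 among those that fell, or 1.28-fold, while the median over all tested genes was 0. Changes of at least 1.5-fold numbered 118 (0.762%), with 81 higher and 37 lower. At least 2-fold changes numbered 46, with 35 higher and 11 lower, and at least 4-fold changes 16, of which the single lower gene was LOC105372261 with 0.511, 0.484 and 0.558 CPM after PBS and 0 after SCF, named after its values were seen. CPM of the treatments did not overlap for any of the 402 genes, as was the case for 21.2% of all tested genes.

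**Figure D2:**
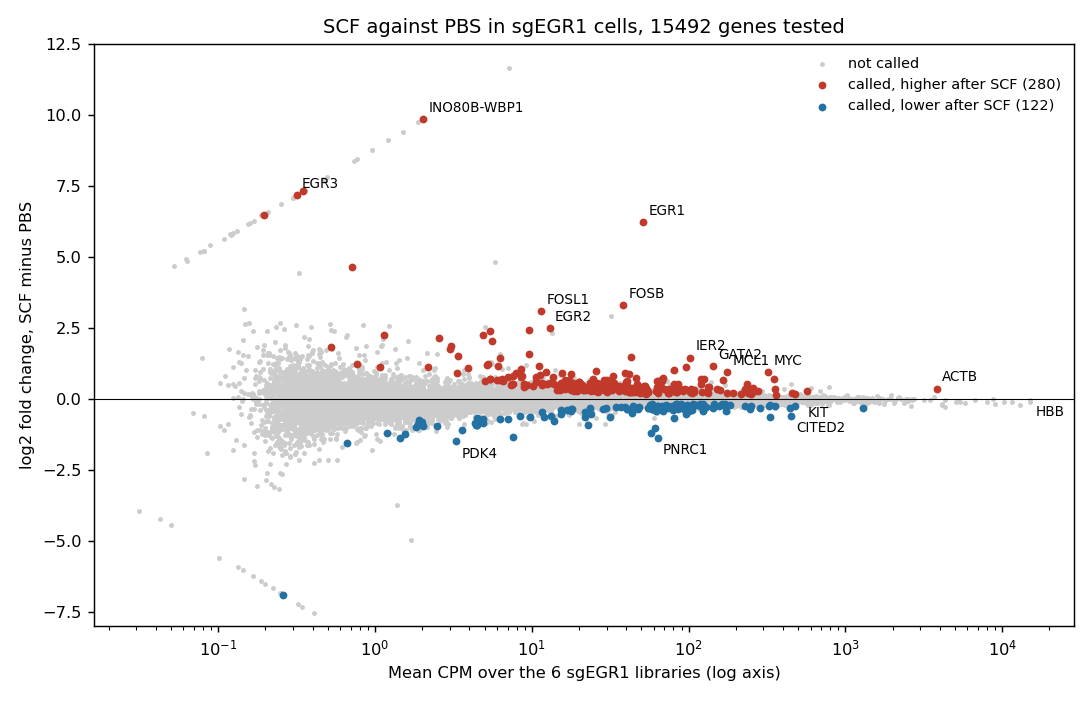
log2 fold change of SCF against PBS for the 15492 tested genes over their mean CPM in the 6 sgEGR1 libraries (log axis), with 280 genes called higher and 122 called lower in colour. The vertical axis ends above the lowest fold change of -9.96, so genes below its end are not shown. EGR1, FOSB and FOSL1 stand highest among well-measured genes, and the diagonal streaks are genes at 0 counts in all libraries of a treatment, whose fitted fold changes depend on the prior count.

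The count of called genes depended strongly on which libraries entered. Without the library labelled sgEGR1 SCF replicate 3, 211 genes were called (1.36%), 158 higher (1.02%) and 53 lower (0.342%), of which 195 were among the 402. A term for replicate 1 raised the number to 1326 (8.56%), 781 higher (5.04%) and 545 lower (3.52%), with all 402 among them. The term together with the omission of that library gave 786 (5.07%), 509 higher (3.29%) and 277 lower (1.79%), with 385 among them. The count was 362, 180 and 183 when PBS replicate 1, 2 or 3 was omitted, and 256 and 191 when SCF replicate 1 or 2 was. Every one of the 402 genes kept its sign in all of these fits. That follows from their CPM not overlapping between treatments, so it is no separate evidence on direction. In total 195 genes, 152 higher and 43 lower, were called with the replicate 1 term, without the library labelled replicate 3, and with both changes, and 145, 116 higher and 29 lower, were called whichever single sgEGR1 library was omitted.

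**Figure D3:**
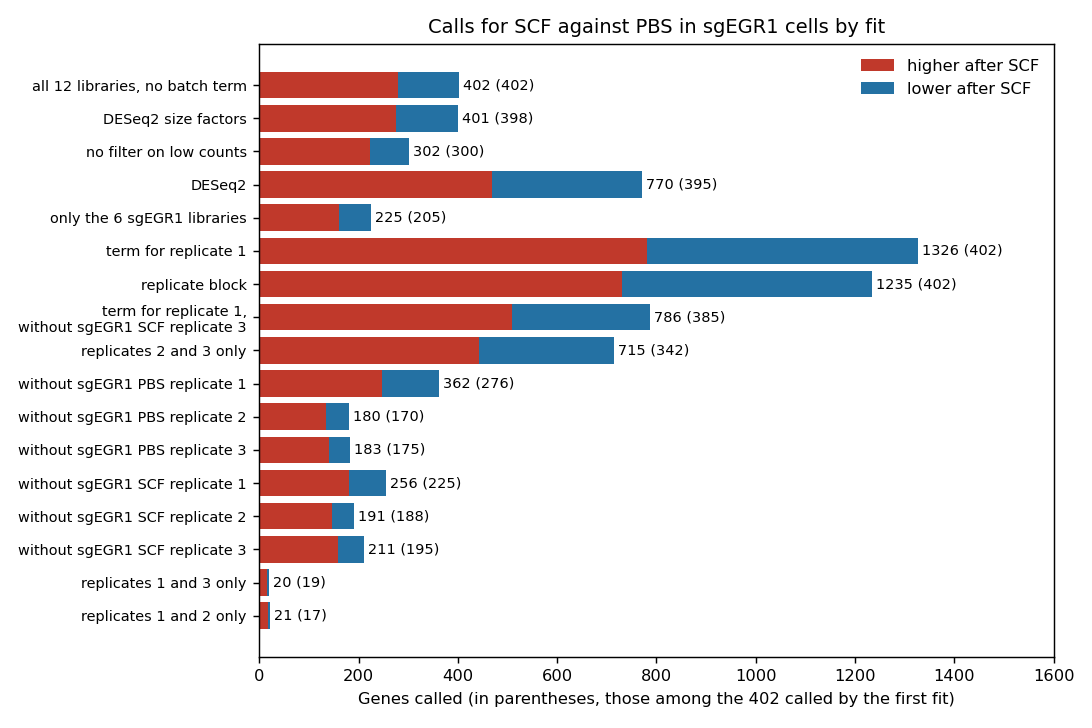
Number of genes called higher and lower after SCF in sgEGR1 cells under each fit, with the number that are among the 402 in parentheses. Counts run from 20 with replicates 1 and 3 only to 1326 with a term for replicate 1, and higher genes outnumber lower ones in every fit.

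A replicate that had no part in a fit mostly moved in the direction of the calls. Genes called from replicates 2 and 3 alone were 443 higher and 272 lower, and in replicate 1 the ratio of SCF to PBS had the same direction for 424 (95.7%) and 248 (91.2%) of them, where 49.4% and 50.2% of all tested genes moved that way. Far fewer genes were called from the other pairs of replicates, which were added after seeing the data. Held-out replicate 2 moved the same way for 14 of 15 higher and 5 of 5 lower genes, and held-out replicate 3 for 15 of 17 higher and 2 of 4 lower genes. The library labelled sgEGR1 SCF replicate 3, set against the PBS mean, moved the same way for 157 of the 158 higher and 50 of the 53 lower genes called without it, with median log2 ratios of 0.50 and -0.39. In the fit without it the same genes had medians of 0.53 and -0.46. The PBS libraries are shared between that fit and that ratio.

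After EGR1, the AP-1 genes FOSB and FOSL1 showed the largest well-measured increases. FOSB, a partner of JUN proteins in AP-1 (chr19:45467996-45475179), stood at 11.6, 4.36 and 5.34 CPM after PBS and 82.8, 64.4 and 60.2 CPM after SCF. FOSL1, another FOS-family gene (chr11:65892049-65900545), stood at 2.17, 2.38 and 2.62 CPM after PBS and 18.6, 23.9 and 18.7 CPM after SCF. For both genes the lowest SCF library was several times the highest PBS library. Their log2 fold changes were 3.30 (SE 0.354, edgeR adjusted p 0.000468) and 3.09 (SE 0.129, adjusted p 2.92e-07), and both were called in all 14 alternative fits. Of 11 tested AP-1 family genes, FOSB, FOSL1, JUNB, MAFG and MAFF rose and the other 6 did not pass, where 1.81% of all tested genes rose, and the median log2 fold change was 0.60 beside 0 for all genes. JUNB went from 285, 255 and 252 CPM to 411, 449 and 442 CPM (log2 fold change 0.72), and the small MAF gene MAFG from 74.6, 76.1 and 74.9 CPM to 99.2, 99.9 and 98.8 CPM (0.40). In neither gene did the treatments overlap, as in every called gene. JUNB and MAFG overlap exons of neighbouring genes. Without the library labelled replicate 3 the number that rose was 4, as MAFF was lost, and with a term for replicate 1, where 5.04% of all genes rose, it was 10.

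FOS itself was the clearest case of replicate 1. It held 16.7, 2.53 and 3.52 CPM after PBS and 141, 15.4 and 13.9 CPM after SCF, so that PBS replicate 1 was higher than both other SCF libraries and the treatments overlapped. Within each replicate number SCF was higher, with log2 ratios of 3.04, 2.39 and 1.84. FOS was not called (log2 fold change 2.93, SE 1.23, edgeR adjusted p 0.278), and it was called once replicate 1 had a term (2.68, adjusted p 3.63e-05, range over 14 alternatives 3.63e-05 to 0.761). JUND, at 138, 92.6 and 103 CPM after PBS and 194, 150 and 155 CPM after SCF, was likewise not called without the term (adjusted p 0.166, range 0.00389 to 0.433).

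The 3 tested EGR genes rose. EGR2 stood at 3.02, 4.66 and 3.98 CPM after PBS and at 15.6, 25.2 and 25.4 CPM after SCF (log2 fold change 2.5, SE 0.221, edgeR adjusted p 0.000117). EGR3 had 0 counts in every PBS library and 27, 17 and 12 counts after SCF, a mean of 0.632 ± 0.281 CPM (SD, n = 3), which was at least 4.95-fold higher than the floor of 3 counts in a PBS library. The EGR1 level of the library labelled replicate 3 was the highest of the group, while its EGR3 level was the lowest and its EGR2 level was close to that of replicate 2. Of 5 tested EGR and NAB genes, EGR1, EGR2 and EGR3 rose with and without that library, where 1.81% and 1.02% of all tested genes did. NAB1 and NAB2 did not pass. EGR3 was called in 8 of 13 alternative fits (adjusted p 0.0196, range 0.00314 to 0.0634). NAB1 went from 14.6, 13.9 and 12.9 CPM to 18.3, 16.4 and 17.4 CPM (adjusted p 0.0825), and was called with a term for replicate 1 (0.0215, range over 14 alternatives 0.0212 to 0.259). EGR2 and EGR3 overlap other annotated transcripts.

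Several feedback inhibitors of ERK signalling rose. DUSP6, a phosphatase of ERK in the cytoplasm, stood at 3.41, 2.94 and 2.62 CPM after PBS and 12.8, 17.7 and 18.1 CPM after SCF (log2 fold change 2.44, SE 0.186, edgeR adjusted p 5.02e-05). DUSP2, a nuclear ERK phosphatase, went from 2.04, 1.53 and 1.57 CPM to 10.7, 7.25 and 9.12 CPM (2.40, SE 0.286, adjusted p 0.000861). Neither gene had overlapping libraries, which the naming rule demanded. DUSP5, also a nuclear ERK phosphatase, went from 0.426, 0.373 and 0.384 CPM to 1.14, 1.98 and 2.5 CPM, and SPRY2, a Sprouty inhibitor of receptor signalling, from 1.83, 1.19 and 1.12 CPM to 2.24, 3.43 and 3.22 CPM. These 4 were the members of 12 tested that rose, where 1.81% of all tested genes did. The median log2 fold change over the list was 0.63, and all 12 had a positive fold change. SPRY2 was not called without the library labelled replicate 3 (adjusted p 0.104, range over 14 alternatives 0.00247 to 0.124), which left 3. With a term for replicate 1, where 5.04% of all genes rose, the number was 8. The well-expressed members DUSP1, at 38.4, 23.3 and 23.1 CPM after PBS and 54.1, 28.3 and 25.4 CPM after SCF, and SPRED2, at 17.4, 18.3 and 17.5 and 23, 19.1 and 17.2 CPM, overlapped between treatments and did not pass. DUSP1 was called with the term (adjusted p 0.048, range over 14 alternatives 0.0361 to 0.952).

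Of the other early response genes, MCL1 and MYC rose to about the same extent within each replicate number. MCL1, an antiapoptotic BCL2 relative, stood at 126, 117 and 116 CPM after PBS and 244, 228 and 221 CPM after SCF (log2 fold change 0.95, SE 0.0493, edgeR adjusted p 1.83e-06). MYC, a growth-promoting transcription factor, stood at 196, 230 and 237 CPM after PBS and 372, 444 and 453 CPM after SCF (0.94, SE 0.0825, adjusted p 0.000117). Between SCF and PBS libraries of the same number, which were not taken as paired, MCL1 and MYC changed by a log2 ratio of 0.92 to 0.96. IER2, an immediate early nuclear protein, went from 65.9, 49.7 and 49.0 CPM to 147, 160 and 143 CPM, and KLF6, a Krüppel-like factor, from 51.5, 47.7 and 48.2 CPM to 71.8, 76.4 and 80.5 CPM. IER2, KLF6, MYC, MCL1, the orphan nuclear receptor NR4A1, the Polo-like kinase PLK3 and CSRNP1 were the 7 of 19 tested that rose. Of all tested genes 1.81% rose, and the median log2 fold change over the list was 0.58. With a term for replicate 1, 9 rose and 1 fell, where 5.04% and 3.52% of all genes did. Without the library labelled replicate 3, 6 rose. NR4A1, with 2.09, 0.932 and 0.977 CPM after PBS and 6.18, 4.61 and 3.50 CPM after SCF, was lost without the library labelled replicate 3 (adjusted p 0.0562, range over 14 alternatives 5.35e-05 to 0.155). PPP1R15A, a stress-induced phosphatase subunit, stood at 363, 341 and 335 CPM after PBS and 363, 387 and 371 CPM after SCF, and KLF10 at 71.2, 46.6 and 43.3 and 82.3, 74.6 and 82.7 CPM, and neither passed. KLF10 was called with a term for replicate 1 (adjusted p 0.102 without it and 0.00343 with it, range over 14 alternatives 0.000284 to 0.311). MCL1, MYC, IER2, NR4A1 and PLK3 overlap neighbouring transcripts.

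The remaining genes with large increases came from several functions. CHAC1, an enzyme that degrades glutathione, went from 1.75, 1.83 and 1.5 CPM to 10.4, 9.26 and 4.71 CPM (log2 fold change 2.26, SE 0.302, edgeR adjusted p 0.00178), with the lowest SCF value in the library labelled replicate 3. TNFRSF12A, the receptor for TWEAK, went from 2.43, 1.71 and 2.48 CPM to 9.35, 7.56 and 10.1 CPM (2.03). SKIL, a repressor of SMAD signalling, went from 6.98, 4.25 and 3.11 CPM to 20.4, 11.9 and 10.5 CPM (1.58). In each of these genes the treatments did not overlap, which the naming rule demanded, and in SKIL both replicate 1 libraries were the highest of their group. SKIL was called in 10 of 14 alternative fits (adjusted p 0.0194, range 2.04e-05 to 0.0919). FJX1 rose by 1.53 on the log2 scale. RNA28SN2, a copy of the 28S ribosomal RNA gene, and INO80B-WBP1, a read-through of adjacent genes, also met the rule for named genes, but their reads cannot be told apart from those of near-identical copies or of INO80B and WBP1. INO80B-WBP1 had 0 counts in every sgEGR1 PBS library and 4.04, 4.02 and 4.12 CPM after SCF, at least 31.8-fold above the floor of 3 counts, while sgControl PBS held 1.70, 0 and 2.21 CPM.

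**Figure D4:**
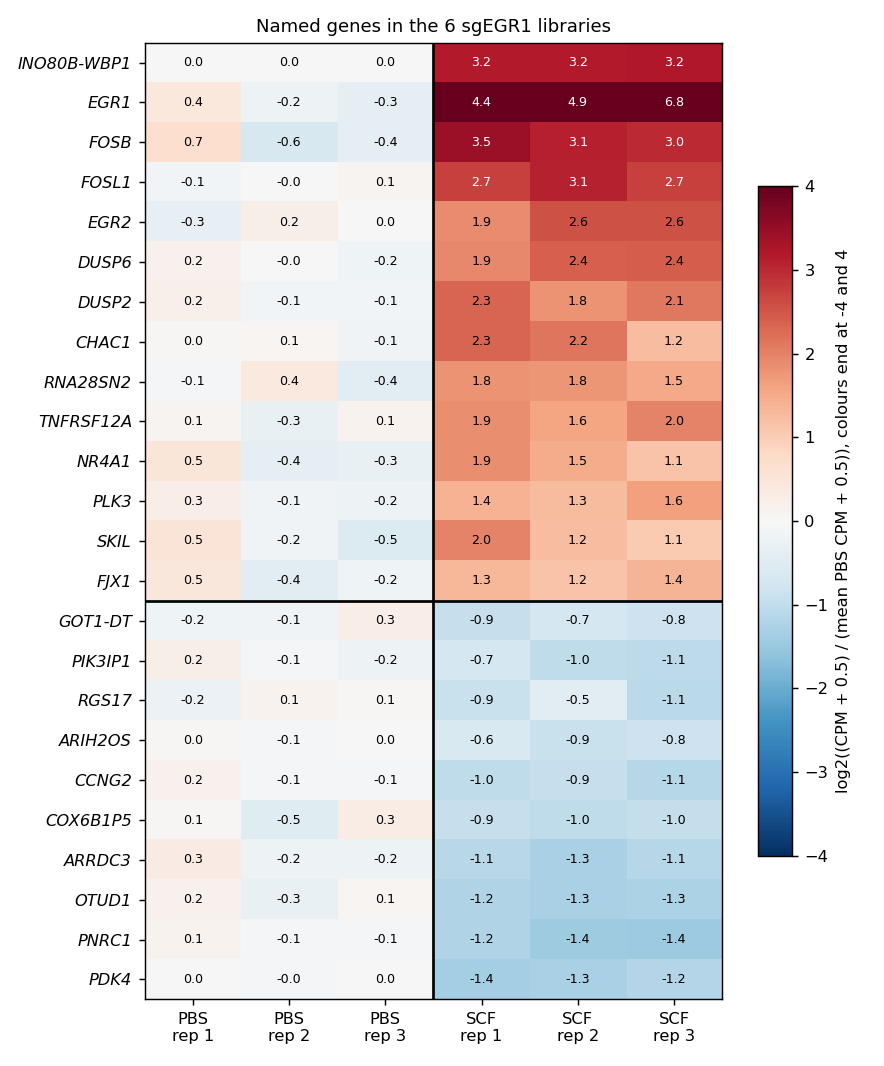
log2 ratio of each sgEGR1 library to the PBS mean, with 0.5 CPM added, for 14 genes of highest and 10 of lowest fold change under the naming rule. The 3 SCF libraries agree in sign for all 24 genes, which the rule's demand for no overlap fixed in advance. The library labelled replicate 3 departs from the others mainly in EGR1 (6.77, against 4.44 and 4.95).

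Of the 10 genes with the lowest fold changes under the naming rule, 5 are in the list of FOXO targets and starvation genes, which was drawn up with earlier results known. PDK4, a kinase that restrains pyruvate use in mitochondria (chr7:95583499-95596516), stood at 4.94, 4.73 and 4.88 CPM after PBS and 1.59, 1.70 and 1.87 CPM after SCF (log2 fold change -1.49, SE 0.165, edgeR adjusted p 0.000522). PNRC1, a nuclear receptor coactivator, stood at 100, 86.0 and 87.5 CPM after PBS and 39.6, 33.8 and 33.1 CPM after SCF (-1.36, SE 0.0895, adjusted p 1.8e-05). OTUD1, a deubiquitinase, went from 12.4, 8.83 and 11.4 CPM to 4.45, 4.13 and 4.28 CPM (-1.34), and CCNG2, a cyclin that slows proliferation, from 91.8, 76.9 and 77.4 CPM to 40.5, 43.3 and 36.9 CPM (-1.03). All SCF libraries lay far below all PBS libraries in these 4 genes, and each was called in all 14 alternative fits. ARRDC3, an arrestin that promotes receptor trafficking, fell by 1.18 and PIK3IP1, an inhibitor of PI3 kinase, by 0.93 on the log2 scale. Both overlap transcripts on the opposite strand.

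In the list of 21 FOXO targets and starvation genes, all of them tested, 9 fell and 12 did not pass, where 0.788% of all tested genes fell, and the median log2 fold change was -0.32 beside 0 for all genes. The count that fell was 9 again without the library labelled replicate 3, where 0.342% of all genes fell, and 12 with a term for replicate 1, where 3.52% did and 1 member rose. The 9 were PDK4, PNRC1, OTUD1, CCNG2, PIK3IP1, CITED2, KLHL24, TXNIP and BCL6. The summed level of the list was 2030 to 2180 CPM after PBS and 1520 to 1570 CPM after SCF. TXNIP, an inhibitor of glucose uptake and of thioredoxin, went from 452, 368 and 380 CPM to 248, 263 and 269 CPM (-0.62, edgeR adjusted p 0.00401). CITED2, a CBP-binding transcriptional regulator, went from 539, 539 and 534 CPM to 330, 381 and 364 CPM (-0.59). FOXO3, a FOXO factor itself, was lower in every SCF library, with 169, 185 and 181 CPM after PBS and 149, 149 and 152 CPM after SCF, but missed the threshold (adjusted p 0.0656, and 0.0114 with a term for replicate 1, range over 14 alternatives 0.00732 to 0.227). SESN3, a sestrin, stood at 142, 139 and 126 CPM after PBS and 139, 114 and 104 CPM after SCF and overlapped. SESN3 was called lower with a term for replicate 1 (adjusted p 0.0482, range over 14 alternatives 0.031 to 0.748). DDIT4, a brake on mTOR that is induced by stress, had the opposite sign (79.0, 90.8 and 90.1 CPM after PBS and 132, 105 and 98.5 CPM after SCF) and was not called without the replicate 1 term.

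The other genes with low fold changes were COX6B1P5, ARIH2OS, RGS17 and GOT1-DT, with log2 fold changes of -1.11 to -0.91. COX6B1P5 is a pseudogene that can share reads with its parent, ARIH2OS is antisense to ARIH2 and overlaps it, and RGS17 is a regulator of G protein signalling. RGS17 stood at 2.73, 3.65 and 3.42 CPM after PBS and 1.55, 2.25 and 1.28 CPM after SCF. Without the library labelled replicate 3, RGS17 (adjusted p 0.145, range over 14 alternatives 0.00729 to 0.149), COX6B1P5 (0.0621, range 0.000309 to 0.0759) and ARIH2OS (0.0715, range 0.00394 to 0.0815) were no longer called by edgeR.

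Of the cell cycle and survival genes, CDKN1B and BBC3 fell and CCND1 and MCL1 rose. CDKN1B, the inhibitor p27 of cyclin-dependent kinases, stood at 105, 97.7 and 97.7 CPM after PBS and 62.3, 61.5 and 62.7 CPM after SCF (log2 fold change -0.69, SE 0.0652, edgeR adjusted p 0.000188). CCND1, the G1 cyclin D1, stood at 8.01, 8.12 and 7.36 CPM after PBS and 15.2, 13.2 and 11.9 CPM after SCF (0.78, SE 0.122, adjusted p 0.00477). These 2 of 19 tested G1 genes were called, where 2.59% of all tested genes were, and the median log2 fold change of the list was 0.07. With a term for replicate 1, 6 rose and 1 fell, where 5.04% and 3.52% of all genes did. With the term and without the library labelled replicate 3, 5 rose and 1 fell, where 3.29% and 1.79% did. CCNE2, the cyclin E2 gene, was called without that library (0.55 and adjusted p 0.0685 with it, 0.035 without, range over 14 alternatives 0.00494 to 0.211) and was named after its values were seen. CCND3, another D cyclin, stood at 432, 367 and 379 CPM after PBS and 470, 417 and 353 CPM after SCF and overlapped. Of 14 tested BCL2-family genes MCL1 rose and BBC3, the proapoptotic PUMA gene, fell from 43.0, 35.2 and 37.6 CPM to 24.7, 25.8 and 23.4 CPM (-0.65, adjusted p 0.00611), and BCL2L11, the proapoptotic BIM gene, was not called (157, 138 and 139 CPM after PBS and 127, 112 and 111 CPM after SCF, adjusted p 0.109, and 0.000165 with a term for replicate 1, range over 14 alternatives 0.000165 to 0.303). With the term 3 BCL2-family genes rose and 3 fell. CDKN1B, CCND1, MCL1 and BBC3 were called in all 14 alternative fits.

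Among feedback and target genes of STAT5, 5 rose and 1 fell of 10 tested, where 1.81% and 0.788% of all tested genes did. The median log2 fold change of the list was 0.34. CISH, an inhibitor of cytokine receptor signalling, stood at 22.9, 25.2 and 24.6 CPM after PBS and 32.7, 44.5 and 49.0 CPM after SCF (log2 fold change 0.80, SE 0.135, edgeR adjusted p 0.00828). The kinase gene PIM3 went from 20.7, 18.9 and 16.4 CPM to 28.5, 30.6 and 31.3 CPM (0.70), whereas PIM1 fell from 130, 102 and 108 CPM to 68.1, 85.5 and 83.2 CPM (-0.52, adjusted p 0.0185). SOCS2, PIM2 and OSM also rose. Without the library labelled replicate 3, CISH and PIM3 remained higher and PIM1 lower. SOCS2 (adjusted p 0.123, range over 14 alternatives 0.00182 to 0.129), PIM2 (0.0715, range 0.00591 to 0.137) and OSM (0.0599, range 0.0096 to 0.17) were not called without it. With a term for replicate 1, where 5.04% of all genes rose and 3.52% fell, the counts were again 5 and 1. BCL2L1, at 49.4 to 50.7 CPM after PBS and 45.0 to 56.2 CPM after SCF, and ID1, at 5.48 to 5.79 and 4.11 to 6.34 CPM, overlapped and did not pass.

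SRF and actin genes rose in part. SRF, the factor that binds CArG boxes, stood at 62.7, 60.1 and 57.1 CPM after PBS and 113, 144 and 136 CPM after SCF (log2 fold change 1.13, SE 0.0889, edgeR adjusted p 5.49e-05). TPM4, a tropomyosin, went from 94.7, 89.8 and 88.9 CPM to 141, 168 and 139 CPM (0.71), and ACTB, beta-actin, from 3310, 3320 and 3410 CPM to 3980, 4490 and 4440 CPM (0.36). These 3 of 15 tested rose, where 1.81% of all tested genes did, and the median of the list was 0.36. The number was again 3 without the library labelled replicate 3. With a term for replicate 1, 7 rose and 1 fell, where 5.04% and 3.52% of all genes did. MYH9 and FLNA, a myosin and a filamin, had overlapping libraries and fold changes of -0.08 and 0.01. Among 9 tested ETS factors ETS2 rose, from 20.3, 29.9 and 30.5 CPM to 38.9, 59.1 and 55.5 CPM (0.93, adjusted p 0.0262), but it was not called without the library labelled replicate 3 (0.0979, range over 14 alternatives 9.33e-07 to 0.107). ELK1 and ELF1 did not pass, but ELF1 was called lower with a term for replicate 1 (adjusted p 0.0408, range over 14 alternatives 0.0188 to 0.378).

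Of 25 tested erythroid genes 1 rose and 2 fell, and 2 rose and 7 fell with a term for replicate 1. Over all tested genes 1.81% rose and 0.788% fell, and 5.04% and 3.52% did with the term. GATA2, a GATA factor of progenitors that declines as erythroid cells mature, stood at 110, 76.2 and 79.5 CPM after PBS and 236, 173 and 180 CPM after SCF (log2 fold change 1.15, SE 0.214, edgeR adjusted p 0.0147). Replicate 1 was the highest in both treatments, and the log2 ratios of same-numbered libraries, not taken as paired, were 1.09, 1.18 and 1.17. GATA2 was called in 11 of 14 alternative fits (range of adjusted p 2.71e-08 to 0.0795), and it overlaps its antisense transcript GATA2-AS1. The transcriptional repressor GFI1B fell from 555, 497 and 507 CPM to 451, 448 and 421 CPM (-0.24, adjusted p 0.0276), and the anion exchanger SLC4A1 from 1450, 1430 and 1450 CPM to 1250, 1190 and 1030 CPM (-0.31, adjusted p 0.0471). The median log2 fold change of the list was -0.08, and both lower calls were lost without the library labelled replicate 3 (GFI1B adjusted p 0.122, range over 14 alternatives 0.00023 to 0.122; SLC4A1 0.153, range 0.00162 to 0.153). With the term and without that library, 1 rose and 4 fell, where 3.29% and 1.79% of all tested genes did. HBB and HBA2, the main adult globin genes, were not called. HBA2, which shares almost all of its sequence with HBA1, was called with the term (log2 fold change -0.27, adjusted p 0.218 without the term and 0.0395 with it, range over 14 alternatives 0.0259 to 0.58).

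Of 26 tested genes of Kit and EPO signalling none was called by edgeR with all 12 libraries and no replicate term. That fit called 2.59% of all tested genes, and 6 members had an unadjusted p under 0.05. BRAF was called in 1 of 14 alternative fits (range of adjusted p 0.017 to 0.467). With the term EPOR and CBLB, a ubiquitin ligase, were called lower (CBLB adjusted p 0.0304, range over 14 alternatives 0.0304 to 0.607). With the term and without the library labelled replicate 3, SH2B3, an adaptor that restrains cytokine signalling, was called higher (0.0459, range 0.0459 to 0.502). BRAF, CBLB and SH2B3 were named after their values were seen. KIT stood at 524, 555 and 548 CPM after PBS and 511, 535 and 509 CPM after SCF (log2 fold change -0.07, SE 0.049), and EPOR at 314, 313 and 319 and 269, 297 and 291 CPM (-0.14, SE 0.0515, adjusted p 0.196, range over 14 alternatives 0.0275 to 0.425). A count of 0 calls does not show that these genes were constant.

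**Figure D5:**
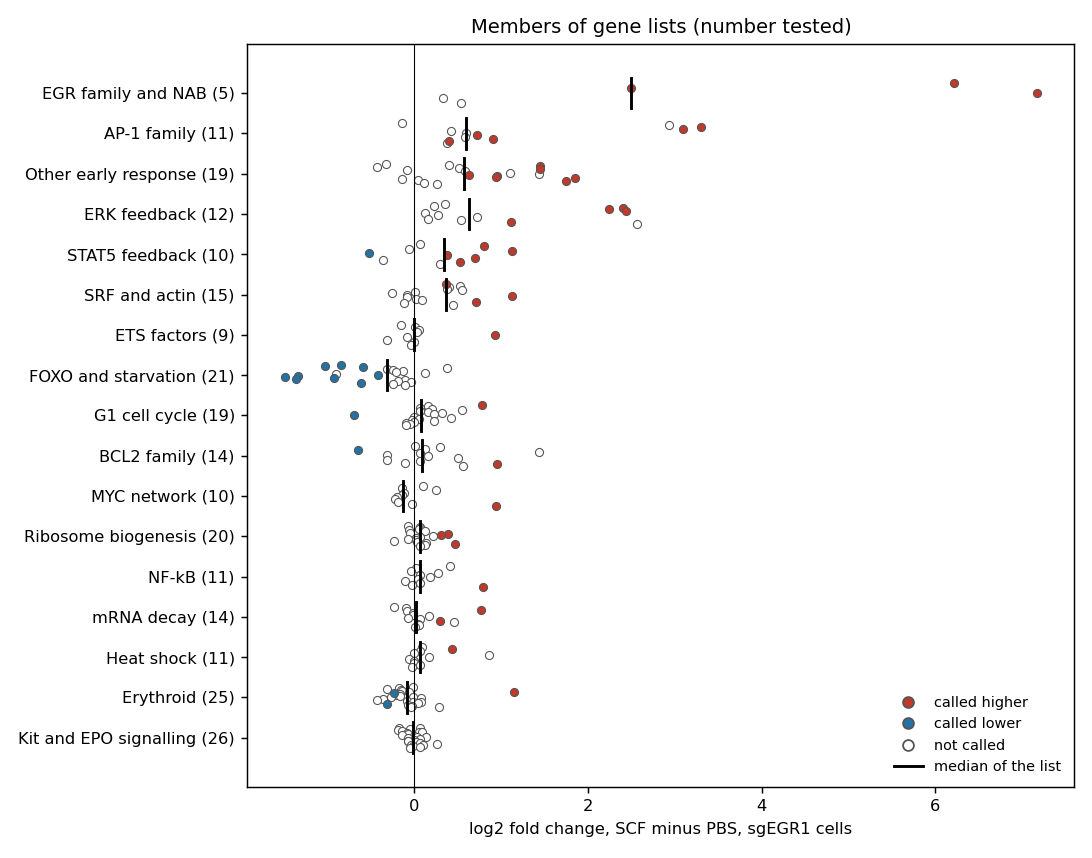
log2 fold change of SCF against PBS in sgEGR1 cells for each tested member of 17 gene lists, filled where called, with a bar at the median of the list. The medians of the EGR, AP-1, early response and ERK feedback lists lie to the right of 0, with 5 of 5, 10 of 11, 15 of 19 and 12 of 12 members above it, the median of the FOXO and starvation list lies to the left (-0.32), and the members of the Kit and EPO signalling list lie within -0.19 and 0.26.

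Single members of other lists were called, where 1.81% of all tested genes rose and 0.788% fell. RRS1, NOP56 and NOP16 rose among 20 ribosome biogenesis genes (log2 fold changes 0.47, 0.31 and 0.39, list median 0.06), and RRS1 alone of them was called without the library labelled replicate 3. NCL and NPM1, the members with the highest CPM, did not pass. TNFAIP3, an inhibitor of NF-kB, rose from 5.58, 5.44 and 5.62 CPM to 8.70, 9.92 and 10.2 CPM (0.79) among 11 NF-kB genes, of which RELA and NFKBIB did not pass. BTG3 and TOB2, antiproliferative proteins that recruit the deadenylase complex, rose among 14 mRNA decay genes (0.77 and 0.29), DNAJB1, a co-chaperone, rose among 11 heat shock genes (0.43), and MYC rose among 10 MYC network genes. TOB2 was not called without the library labelled replicate 3 (adjusted p 0.0624, range over 14 alternatives 0.000267 to 0.0702). With a term for replicate 1 the number that rose was 5 in the ribosome biogenesis list, 2 in the NF-kB list, 4 in the mRNA decay list, 2 in the heat shock list and 2 in the MYC network, where 1 fell. Of all tested genes 5.04% rose and 3.52% fell with that term. ZFP36L2, CNOT1, HSP90AB1, HSP90AA1, MGA and MXD4 did not pass, but MXD4 was called lower with the term (adjusted p 0.0338, range over 14 alternatives 0.00832 to 0.464). Of 17 tested genes that the study itself named, a list chosen in part on these libraries and so no independent evidence, EGR1, FOSB, DUSP5, GATA2 and ZNF267 rose. ZNF267 was not called without the library labelled replicate 3 (adjusted p 0.061, range over 14 alternatives 0.000819 to 0.0904), which left 4, and with a term for replicate 1, 10 rose and 2 fell. ZBTB7A, a repressor of fetal globin, stood at 249, 240 and 255 CPM after PBS and 285, 307 and 314 CPM after SCF without passing (adjusted p 0.126, range over 14 alternatives 0.036 to 0.32), and STAT6 did not pass. Among housekeeping genes YWHAZ rose (0.16; adjusted p 0.111 without the library labelled replicate 3, range over 14 alternatives 9.26e-05 to 0.125), and GAPDH and RPLP0 were not called. The called genes with the highest CPM were ACTB, YWHAZ and the translation factor EIF4G2 (0.27) among those that rose, and GFI1B, SLC4A1 and CITED2 among those that fell.

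Genes that rose were compact. By GENCODE gene models, which matched 98.9% of the genes that rose and 90.4% of those tested, the median gene length was 13.7 kb among genes that rose, 38.6 kb among genes that fell and 27.6 kb among all tested genes, and the median number of exons was 5, 9 and 8. Among genes that rose at least 2-fold the median length was 5.81 kb, and 67.6% had 4 or fewer exons, against 29.2% of all tested genes. These values describe the called genes and were not tested.

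Upstream sequence is shown for 4 of the genes with large changes because their letters hold motifs that were searched for. The 250 bases before the RefSeq start (GRCh38.p14, plus strand in all 4) are given from 5′ to 3′, and capitals mark motifs found on either strand. The windows are chr5:138465229-138465478 for EGR1, chr19:45467746-45467995 for FOSB, chr10:23438825-23439074 for OTUD1 and chr3:170357465-170357714 for SKIL. In EGR1 the capitals are CArG boxes, the SRF motif, at positions -105 to -96 and -83 to -74 from the start. In FOSB they are the ETS core CCGGAA and the TATA box TATAAA, in OTUD1 the E-box CACGTG and the FOXO motif GTAAACA, and in SKIL the CRE TGACGTCA.
EGR1: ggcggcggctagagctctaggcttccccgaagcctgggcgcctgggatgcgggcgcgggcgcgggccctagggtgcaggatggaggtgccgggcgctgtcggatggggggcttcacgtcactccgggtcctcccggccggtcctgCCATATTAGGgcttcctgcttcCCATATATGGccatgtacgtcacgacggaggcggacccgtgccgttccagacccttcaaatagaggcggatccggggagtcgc
FOSB: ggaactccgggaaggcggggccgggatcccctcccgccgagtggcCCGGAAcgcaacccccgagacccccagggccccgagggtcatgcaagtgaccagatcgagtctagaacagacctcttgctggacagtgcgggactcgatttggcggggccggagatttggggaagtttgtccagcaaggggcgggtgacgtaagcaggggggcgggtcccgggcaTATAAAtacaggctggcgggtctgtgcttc
OTUD1: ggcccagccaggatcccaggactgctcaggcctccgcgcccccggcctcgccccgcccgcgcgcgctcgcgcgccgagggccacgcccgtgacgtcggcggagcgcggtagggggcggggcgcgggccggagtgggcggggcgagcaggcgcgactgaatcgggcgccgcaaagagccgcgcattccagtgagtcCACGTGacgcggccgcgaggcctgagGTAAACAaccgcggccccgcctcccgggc
SKIL: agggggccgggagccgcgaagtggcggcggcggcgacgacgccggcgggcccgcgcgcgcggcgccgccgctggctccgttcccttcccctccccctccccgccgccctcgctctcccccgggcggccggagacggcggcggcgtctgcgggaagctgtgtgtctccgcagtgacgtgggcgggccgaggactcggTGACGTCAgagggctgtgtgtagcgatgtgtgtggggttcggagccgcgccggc

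Of all 27305 RefSeq windows of this length, 1.14% held a CArG box, 14.8% CCGGAA, 11.1% TATAAA, 2.98% GTAAACA, 6.49% CACGTG and 1.77% TGACGTCA. The AP-1 motif TGANTCA (6.6% of windows) and the EGR motif GCGTGGG (5.96%) were searched as well and are not in these 4 windows. Windows were matched for 78.6% of the genes that rose and 71.0% of those tested. With under 80% matched a comparison of motif shares between them is void, and none is given. SRF held CArG boxes at -30 to -21 and -10 to -1, and TPM4 at -173 to -164. The 4 windows shown were picked for their motifs. Those of PDK4, PNRC1, PIK3IP1, EGR2, DUSP6, CHAC1 and PLK3 held none of the searched motifs, and that of CCNG2 only an E-box. GTAAACA was also present in JUNB, which rose, and in TXNIP, which fell. A match is a description of the letters and not evidence that a factor was bound. The EGR1 window does not reach the guide site, which lies 630 bases upstream.

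The response of sgEGR1 cells was set against that of sgControl cells in the same model. No gene differed in its response at an adjusted p under 0.05 by edgeR, 306 of 15492 had an unadjusted p under 0.05, and DESeq2 called 4. Those 4 were ATF6B, SYNGR4, EEF1E1-BLOC1S5 and RNA45SN4, which were named after their values were seen and of which the last 2 are a read-through gene and a ribosomal RNA copy. ATF6B and SYNGR4 were at 0 CPM in every sgEGR1 PBS library and at most 0.812 and 0.698 CPM in any of the 12 libraries. Their differences therefore rest on few counts. Without the library labelled replicate 3 edgeR called BZW1-AS1 and TCAF1P1, an antisense transcript with 0, 0 and 1.78 CPM and a pseudogene with 2.76, 1.66 and 0 CPM in the sgEGR1 SCF libraries. For EGR1 the sgEGR1 response exceeded the sgControl response by 1.56 on the log2 scale (SE 0.949), from a lower PBS level of 1.38 ± 0.580 CPM against 8.10 ± 2.51 CPM (SD, n = 3). The excess was 0.51 once the library labelled replicate 3 was omitted (SE 0.419). For FOSB the difference was 0.53 (SE 0.479), for FOSL1 0.29 (SE 0.18) and for PDK4 -0.23 (SE 0.232), each with an edgeR adjusted p of 1. These values do not show that the responses were equal.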

How the data were processed

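Libraries were paired-end RNA-seq of 12 HUDEP-2 samples in 4 groups of 3, assigned from the labels. The count columns carry a guide code for sgEGR1, read as sgEGR1 because the labels hold no other construct besides the scrambled control. Different library kits are named in the labels and in the methods. The authors aligned reads to hg38 with HISAT2 and deposited estimated counts per gene from StringTie, neither scaled nor pooled. All deposited values were whole, so rounding changed none. Annotation, strand use and multi-mapping were not given in the sources used here, so counts of genes that overlap on either strand or have close copies are uncertain. The methods call the replicates biological, but the labels name no separate cultures or days, so p-values measure the spread between these libraries, which may in part be technical.

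Genes were kept by filterByExpr (15492) and tested by quasi-likelihood in edgeR 4.0.16 (glmQLFTest, R 4.3.3) with TMM factors, 1 coefficient per group and all 12 libraries. Calls needed an adjusted p (Benjamini-Hochberg) under 0.05. SE is the log2 fold change divided by the root of F. DESeq2 1.42.0, other filters and scalings, a replicate 1 term, a replicate block, the sgEGR1 libraries alone and omission of each sgEGR1 library were alternatives. A floor of 3 counts per library marks non-detection. The floor covers counting error only, whereas SD and SE include the spread between libraries. On simulated counts for SCF against PBS in sgEGR1 cells, edgeR recovered 162 of 200 genes changed 2-fold and 122 of 200 changed 1.5-fold, with 5 and 8 false calls. DESeq2 recovered 170 and 146, with 31 and 24 false calls. Where no gene was changed, edgeR made 0 false calls and DESeq2 11. The simulated counts held no replicate 1 effect, so these figures need not hold for libraries that have one.

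Named genes were EGR1, FOSB, FOSL1 and PDK4, the 14 highest and 10 lowest log2 fold changes among called genes of at least 2 CPM without overlap, up to 4 called and 2 uncalled members per list, and the 3 most abundant called genes per direction. Members and lists were chosen with earlier results of these data known. Promoters are from RefSeq and gene models from GENCODE. The result of 1 housekeeping gene and the sequence of the sgControl guide are not reported here.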

Additional observations from a re-analysis of the deposited data

How the results depend on the processing

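The number of genes called for SCF against PBS in sgEGR1 cells, 402 (280 higher, 122 lower), was 770 (469 and 301) by DESeq2, 225 (160 and 65) from the 6 sgEGR1 libraries alone, 1326 (781 and 545) with a term for replicate 1, 786 (509 and 277) when, beside that term, the library labelled sgEGR1 SCF replicate 3 was omitted, 715 (443 and 272) from replicates 2 and 3, and 118 (81 and 37) at a minimum of 1.5-fold. Without a filter on low counts 80 genes were lower. Leaving out 1 library gave 180 to 362 genes (135 to 247 higher, 43 to 115 lower). Replicates 1 and 3 alone gave 20 (15 and 5) and replicates 1 and 2 alone 21 (17 and 4), a choice made after seeing the data. The lower genes were CITED2, CCNG2, PNRC1, CDKN1B and OTUD1 in the first and BZW1-AS1, CCNG2, PNRC1 and OPN3 in the second. The cause of these differences was not tested. All 402 genes kept their sign in each of these fits, which follows from their CPM not overlapping between treatments.

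With the replicate number as a block, 1235 genes were called (730 and 505). Residuals of same-numbered libraries correlated at 0.23, 0.0749 and 0.062, so the numbers were not taken to pair the libraries.

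Genes whose response differed between guides numbered 0, but 4 by DESeq2, 2 with the replicate 1 term and without the library labelled replicate 3, 2 from replicates 2 and 3 (CARS1 and MIR600HG), 1 from replicates 1 and 3 (PI4KAP2), 1 from replicates 1 and 2 (OPN3), and 0 to 2 when 1 library was left out. The log2 difference in EGR1, 5.43, was 4.74 to 5.90 when 1 library was left out. Depth limits genes under about 2 CPM most.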
